A study of Homo sapiens with 24 samples.

Results

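The experiment described here is the transient knockdown of TFAP2C by siRNA in HCC1954, a HER2-positive human breast carcinoma cell line, measured by RNA sequencing. TFAP2C encodes the transcription factor AP-2gamma, and the stated aim of the study was to find its target genes behind growth and invasiveness. Both groups were HCC1954 cells transfected with Lipofectamine RNAiMAX and taken 72 to 96 h later. The control group received the non-targeting siRNA named Negative control siRNA#2, and the knockdown group received 1 siRNA against TFAP2C. Each group had 3 samples, 6 of the 24 samples of the series, and the labels state that the cells were not authenticated by the submitters. The labels do not say whether the 3 samples of a group were grown separately, so a p-value covers no more than the spread among these samples, possibly a technical one.

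The authors' deposited table gives 1 pooled FPKM (fragments mapped to a transcript, scaled to its length and to the size of the library) per group and RefSeq transcript accession. No value for a single sample was used here, so a level below has no replicate spread of its own and the sequencing depth is unknown. The genes described are those with at least 1 accession whose test the authors completed, 11078 gene symbols of the 12282 that had such a test in any table of the series. A gene's level is its FPKM summed over the tested accessions. A gene is said to rise or fall where its summed level moved in that direction, at least 1 of its accessions had a deposited q-value under 0.05 that way, and none had it the other way. By this rule 253 genes rose and 108 fell, which is 2.28% and 0.975% of the genes tested, or 3.26% in either direction. These 3 shares are the background for every list below. The lists and their members were chosen with earlier results of these data known. A share above the background therefore describes a list and is not support for it. Each tested gene had at least 2.00 FPKM in 1 of the groups. Of the genes that rose, 30 were under 2 FPKM in the control and entered the test only through their level after knockdown. Likewise 5 of the genes that fell were under 2 FPKM after knockdown.

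AP-2 factors bind DNA as dimers at GC-rich palindromes and can activate or repress transcription. In the mammary epithelium AP-2gamma is known for its part in the luminal programme, the keratin and receptor pattern of the cells that line the ducts. HER2-positive lines carry many copies of ERBB2, whose product signals through growth factor pathways. Basal cells of the same epithelium are known for another set of keratins, for integrins and laminins of the basement membrane, and for contractile proteins.

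TFAP2C (GRCh37 chr20:55204362-55214339, plus strand, a protein-coding gene) stood at 92.4 FPKM in control cells and 22.0 FPKM after its siRNA. This is a 4.20-fold fall to 23.8% of the control level, a log2 ratio of -2.07 with a standard error of 0.31, and q = 0.00425 in the authors' deposited table. Standard errors here are the log2 ratio of the called accession divided by the authors' test statistic. That statistic and the deposited p are not on the same scale, since called accessions had absolute statistics of 1.34 to 7.60, so the errors are wider than the q-values alone would give. TFAP2A, the gene of AP-2alpha, was listed at 19.8 FPKM in the control and 25.8 FPKM after knockdown, not called. In bulk RNA, fewer cells with a transcript and less of it per cell cannot be told apart. CITED2, a coactivator of AP-2 factors, was listed at 6.47 and 9.92 FPKM and was not called either.

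The cells of both groups carried markers of HER2-positive epithelial cells, which are not particular to the labelled line. ERBB2 was listed at 4676 FPKM in control and 4016 FPKM in knockdown cells, and its amplicon neighbour GRB7, the gene of a signalling adaptor, at 1959 and 1581 FPKM. The simple epithelial keratin KRT8 was high in both groups, at 1020 and 953 FPKM. None of these 3 was called. KRT19, of the same kind of keratin, was low at 7.51 and 4.01 FPKM and was called lower. The table's columns name only the siRNA, and its line was taken from the name of the deposited table. Over 14067 genes with at least 1 FPKM in any of the controls compared, the Spearman correlation of these control levels was 0.795 with the other HCC1954 control of the series and 0.688 with the SKBR3 control. These are correlations across genes, between tables normalized separately. Of 29 markers of fibroblasts, endothelium and leukocytes, 25 were under 1 FPKM in both groups, among them COL1A2, COL3A1 and DCN, listed at 0.

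Changes were moderate in size and lay on top of a distribution centred near 0. The median log2 ratio of all genes with a level above 0 in both groups was -0.01, and 5% of genes lay below -0.46 and 5% above 0.55. The median rise was 1.62-fold and 57 of the 253 rises were over 2-fold. The median fall was 1.58-fold and 25 of the 108 falls were over 2-fold. Genes that rose had a median control level of 11.3 FPKM, against 25.6 FPKM for genes that fell and 14.6 FPKM for all genes tested. With the genes in 4 equal bins by control level, 3.07% rose and 0.361% fell in the lowest bin, while 2.24% rose and 1.70% fell in the highest. The floor of 2.00 FPKM lets a gene of low control level enter the test more easily if it is higher after knockdown, and the lowest bin holds all 30 such rises.

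**Figure D1:**
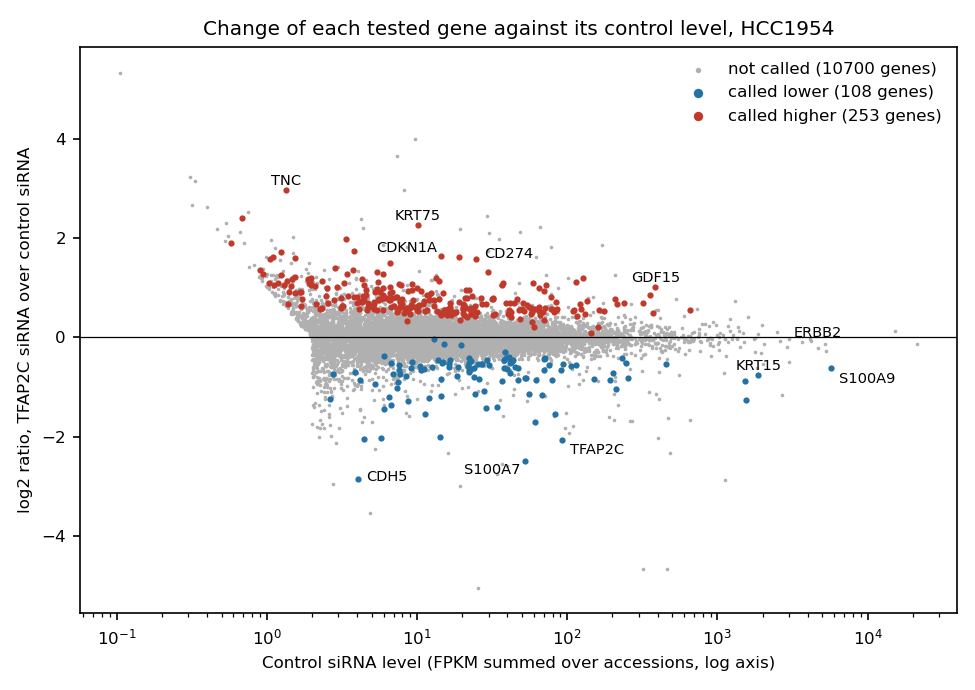
Each point is a gene, with its control level (summed FPKM, log axis) against the log2 ratio of TFAP2C siRNA over control siRNA. Only genes with at least 0.1 FPKM in both groups are drawn. Called genes are coloured. TNC and KRT75 stand highest among the labelled rises, CDH5 and S100A7 lowest among the falls, and ERBB2 is not called. Grey points below 2 FPKM lie only above the line, since a gene needed 2.00 FPKM in 1 group to be tested.

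The largest rises were in matrix, cytoskeletal and keratin genes, in the cell-cycle inhibitor p21 and in the checkpoint ligand PD-L1. TNC, the gene of the matrix glycoprotein tenascin C, rose 7.79-fold, from 1.35 to 10.5 FPKM (log2 ratio 2.96, standard error 0.39). KRT75, a type II keratin of the hair follicle, rose 4.82-fold, from 10.1 to 48.8 FPKM (log2 ratio 2.27, standard error 0.39). CALD1, which encodes the actin-binding protein caldesmon, rose 3.94-fold, from 3.35 to 13.2 FPKM, with a standard error of 0.79 on a log2 ratio of 1.98. For CALD1 the authors' deposited table gives q = 0.040, near the threshold. VIM, the intermediate filament of mesenchymal cells, rose 3.32-fold to 12.6 FPKM, and HMGA2, an architectural chromatin protein, rose 3.28-fold to 4.09 FPKM. Over its 3 tested transcripts CDKN1A, the gene of p21, rose 3.09-fold, from 14.5 to 45.0 FPKM. The plasma membrane protein gene PLLP, the forkhead factor gene FOXD1 and the synaptic vesicle gene SYNGR3 rose 3.05-, 3.03- and 2.98-fold from levels of 1.11, 1.53 and 1.04 FPKM. These 3, with TNC and HMGA2, are among the genes tested only through their level after knockdown, as are MERTK, ITGB8, MMP13, IRS1, IRS2 and IL1B in the lists below. CD274, the gene of PD-L1, rose 2.97-fold, from 24.8 to 73.6 FPKM summed over 3 transcripts. PTGS2, the inducible cyclooxygenase, rose 2.81-fold, from 6.57 to 18.5 FPKM. AP1S3, a subunit of a clathrin adaptor, rose 2.58-fold, from 3.77 to 9.72 FPKM.

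The largest falls were in secreted and antimicrobial proteins, in enzymes and in chemokines. S100A7, also called psoriasin, fell 5.59-fold, from 52.2 to 9.33 FPKM (log2 ratio -2.48, standard error 0.71). CYP4Z1, a cytochrome P450 known for its expression in the mammary gland, fell 4.01-fold, from 14.1 to 3.52 FPKM. Its near-identical pseudogene CYP4Z2P fell 4.06-fold, from 5.72 to 1.41 FPKM, and reads of this pair can be split between them. FAM30A and LINC01235, both long noncoding RNA genes, fell 4.16-fold to 1.06 FPKM and 2.57-fold to 2.61 FPKM. SPINK8, of the Kazal-type protease inhibitor family, fell 3.25-fold, from 61.2 to 18.9 FPKM. LBP, the gene of the lipopolysaccharide-binding protein, fell 2.90-fold, from 82.5 to 28.5 FPKM (log2 ratio -1.54, standard error 0.35). SUSD2, a sushi-domain membrane protein gene, fell 2.65-fold, from 34.0 to 12.8 FPKM, and PDZD2, a PDZ-domain protein gene, fell 2.36-fold, from 2.65 to 1.12 FPKM. CDH5, the gene of VE-cadherin, stood outside this ranking because it ended under 1 FPKM. It fell 7.22-fold, from 4.04 to 0.559 FPKM (log2 ratio -2.85, standard error 0.68). CDH5, FAM30A, CYP4Z2P and PDZD2 ended under 2 FPKM, so they were tested only through their level in the control. CDH5 and PECAM1, which fell from 27.0 to 18.5 FPKM, were the endothelial markers that passed the test. The other 7 endothelial markers were at most 0.412 FPKM in either group, with ERG and EMCN listed at 0.

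**Figure D2:**
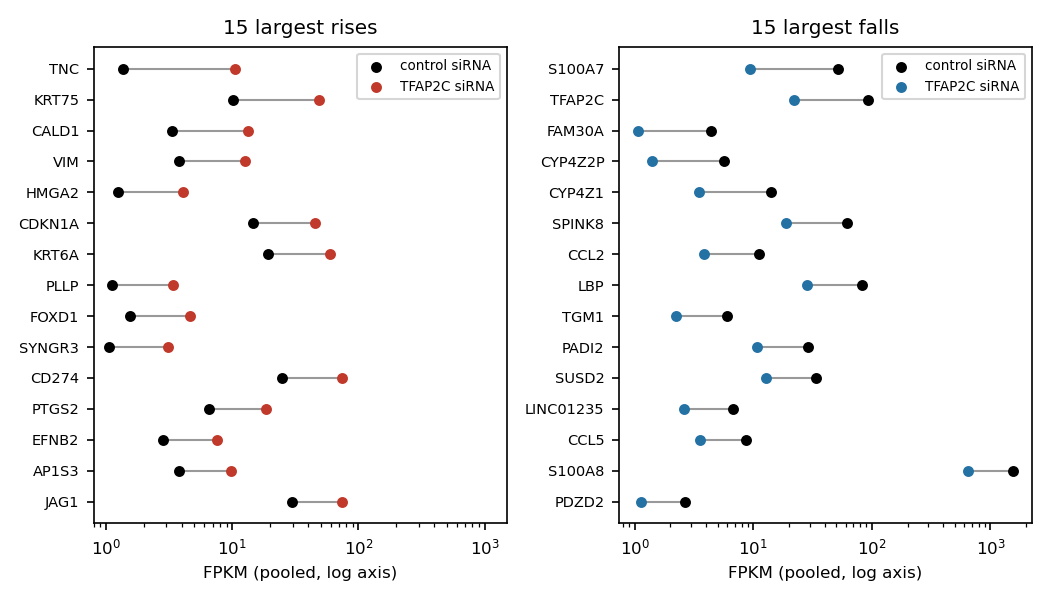
Pooled FPKM (log axes) of the 15 genes with the largest rise and the 15 with the largest fall among called genes with at least 1 FPKM in both groups. Black points are control siRNA and coloured points TFAP2C siRNA, 1 pooled value per group, so there are no error bars. S100A8 changed at the highest level, from 1556 to 653 FPKM.

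Because AP-2 factors bind GC-rich palindromes, the promoters of the genes with the largest changes were searched for the letters GCCNNNGGC, which read the same on both strands. Promoters run from 250 bases before to 50 bases after the annotated start and come from RefSeq (GRCh38.p14). Of 27305 promoters of this length in the table, 23.0% held it. Among the tested genes, called or not, 2842 of the 8744 with a promoter at hand held it, or 32.5%. A match is therefore common among tested genes. A comparison of shares between rises and falls is void, because a promoter was at hand for 187 of 253 genes that rose and 71 of 108 that fell, under 80% of each, and for 6 of the 15 largest falls. Among the 15 largest rises 4 of the 12 with a promoter at hand held a match, and among the 15 largest falls 1 of 6. Most promoters searched in this way held none, those of TNC, VIM, CDKN1A and S100A8 among them. The promoters of 3 genes with a match are shown, as examples of a hair follicle keratin, the checkpoint ligand and a secreted antimicrobial protein. These are the 250 bases before the start on the gene's own strand, with the matching letters in capitals. The match begins 153, 78 and 70 bases before the start, and it is a match of letters only, not a measured binding site.
KRT75 (chr12:52434372-52434621, minus strand): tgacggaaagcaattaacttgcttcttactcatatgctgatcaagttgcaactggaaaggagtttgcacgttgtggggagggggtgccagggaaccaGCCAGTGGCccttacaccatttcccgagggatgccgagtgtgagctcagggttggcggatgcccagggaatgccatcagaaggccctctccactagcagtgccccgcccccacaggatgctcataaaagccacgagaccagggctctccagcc
CD274 (chr9:5450292-5450541, plus strand): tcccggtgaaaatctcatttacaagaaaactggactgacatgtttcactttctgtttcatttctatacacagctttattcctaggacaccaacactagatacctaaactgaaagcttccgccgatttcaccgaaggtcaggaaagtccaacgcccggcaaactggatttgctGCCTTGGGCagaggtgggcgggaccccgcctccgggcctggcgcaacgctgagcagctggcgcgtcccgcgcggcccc
S100A7 (chr1:153460652-153460901, minus strand): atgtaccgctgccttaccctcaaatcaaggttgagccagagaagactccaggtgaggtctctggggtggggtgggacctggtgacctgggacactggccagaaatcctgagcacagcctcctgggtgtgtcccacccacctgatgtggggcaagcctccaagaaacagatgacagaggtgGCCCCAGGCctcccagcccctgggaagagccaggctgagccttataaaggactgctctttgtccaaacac

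Keratins split into risers and fallers. In the list of basal and stress keratins 7 of 15 tested genes rose and 2 fell, against 2.28% and 0.975% of all genes, and the median log2 ratio was 0.31. KRT6A, a keratin of wounded and hyperproliferative epithelium, rose 3.09-fold, from 19.1 to 59.1 FPKM. Its usual partner KRT16 rose 2.12-fold, from 37.4 to 79.4 FPKM, and KRT17, another keratin of activated epithelium, rose 1.82-fold, from 357 to 649 FPKM. KRT6C rose 1.94-fold, from 9.28 to 17.98 FPKM. KRT15, a keratin of basal layers and stem cells, fell 1.70-fold, from 1869 to 1097 FPKM. The hair keratin KRT81, the most abundant of the list, was listed at 2478 and 2672 FPKM and was not called. Among 5 simple epithelial keratins, KRT23 rose from 136 to 227 FPKM and KRT19, a luminal keratin, fell from 7.51 to 4.01 FPKM, while KRT7 was listed at 1740 and 1708 FPKM and KRT18 at 1271 and 1310 FPKM, neither called. The KRT6, KRT16 and KRT17 genes have close copies, and the pseudogenes KRT16P3, KRT17P1 and KRT17P2 rose as well, 1.78-, 1.95- and 1.74-fold, so the split of reads among them is uncertain.

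The directions changed within the gene clusters, which were chosen for this view after their values were seen. The type I keratin cluster on chromosome 17 (chr17:38810917-39781094, GRCh37) holds 28 keratin genes, of which 8 were tested. KRT15 and KRT19, which lie side by side, both fell, and the 3 tested genes after them in chromosomal order, KRT14, KRT16 and KRT17, all rose. KRT14, the main basal keratin of this type, rose 1.68-fold, from 6.55 to 11.03 FPKM. In the type II cluster (chr12:52562780-53346690, GRCh37) 4 of 16 tested genes rose and 1 fell. The 4 risers, KRT75, KRT6B, KRT6C and KRT6A, were consecutive among the tested genes. KRT6B rose 1.40-fold, from 22.8 to 32.0 FPKM. The next gene, KRT5, the main basal keratin of type II, was listed at 40.2 and 46.4 FPKM and was not called, and KRT4, a keratin of mucosal epithelium, fell from 39.6 to 25.2 FPKM. In the S100 cluster (chr1:151955391-153604515, GRCh37) the 3 fallers of 12 tested genes, S100A9, S100A8 and S100A7, were also consecutive, and none rose.

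**Figure D3:**
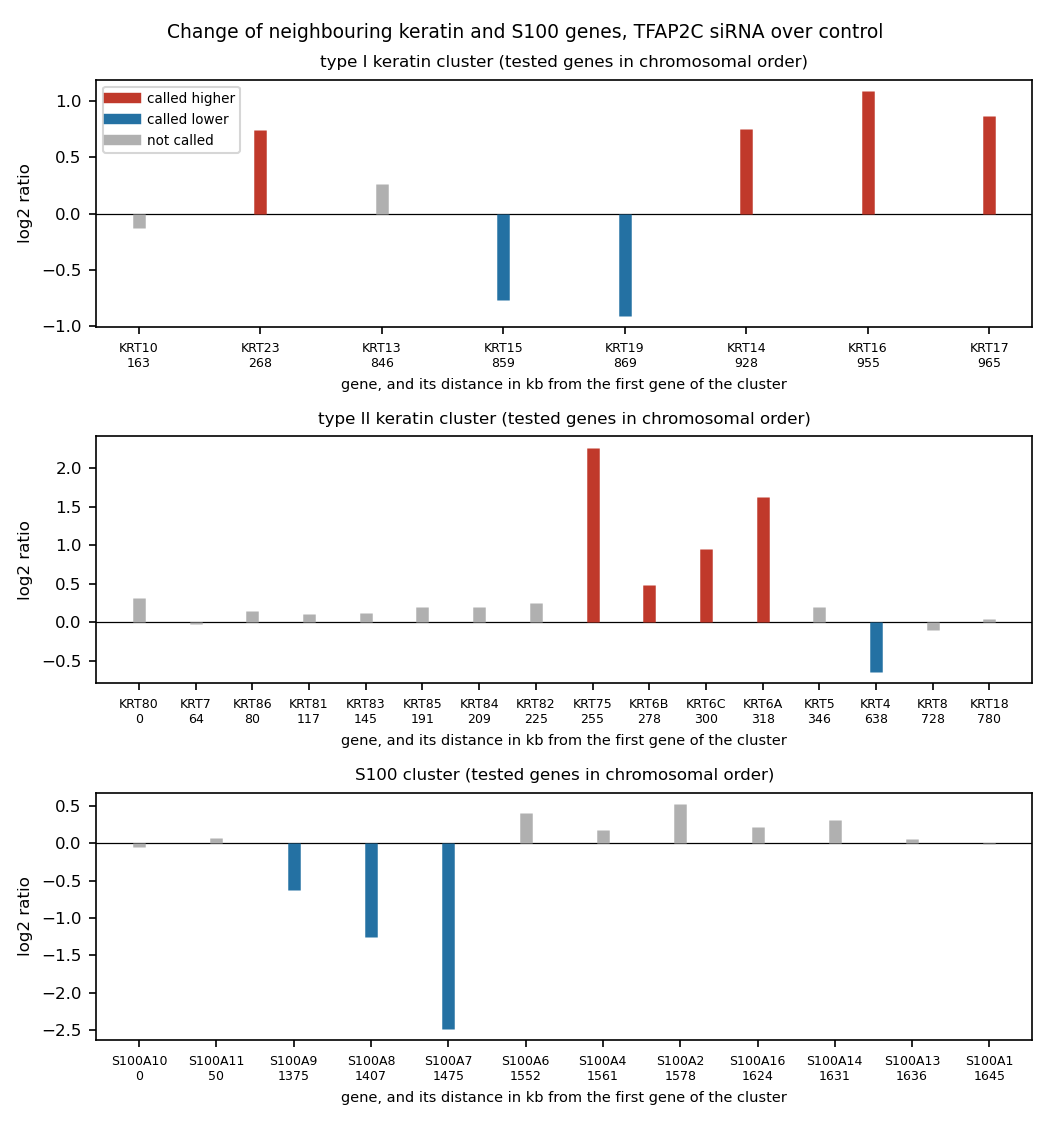
log2 ratio of TFAP2C siRNA over control for the tested genes of the type I keratin, type II keratin and S100 clusters, in chromosomal order, with the distance from the first gene of each cluster in kb under the name. Bars are coloured where the gene was called. KRT15 and KRT19 point down beside KRT14, KRT16 and KRT17, and S100A9, S100A8 and S100A7 point down among neighbours that were not called.

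Mesenchymal genes rose in more cases than they fell. Of 18 tested members 9 rose and 1 fell, and their median log2 ratio was 0.60. TNC and HMGA2, 2 of the 9, were tested only through their level after knockdown, so the count and the median are a description and not support. The largest rises among them were those of TNC, CALD1, VIM and HMGA2, given above. SNAI2, a transcriptional repressor of epithelial genes, rose 2.03-fold, from 6.60 to 13.4 FPKM. TGFBI, a matrix protein gene induced by TGF-beta, rose 1.49-fold, from 61.3 to 91.5 FPKM. Other called members, named after their values were seen, were THBS1 and LOXL2, which rose 1.79- and 1.44-fold, and the collagen gene COL12A1, which fell 1.53-fold. FN1, the fibronectin gene, was listed at 15.2 and 20.4 FPKM summed over 4 transcripts, not called. Fibroblast markers gave no tested gene, and their summed level was 2.20 FPKM in the control and 2.84 FPKM after knockdown.

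In the list of epithelial cadherin and adhesion genes, 1 of 21 tested genes rose and 1 fell, with a median log2 ratio of 0.04. CDH1, the E-cadherin gene, was listed at 259.3 and 268.9 FPKM, not called. The faller was CDH5, the endothelial marker described above, so its fall is not one of an epithelial gene. Among 26 tight junction genes 1 rose, the claudin gene CLDN1, from 64.9 to 129 FPKM, while CLDN4 was listed at 628 and 608 FPKM. Of 10 desmosome genes none was called by the authors' Cuffdiff test, and 7 had an unadjusted p under 0.05. Here and below such a count takes the smallest p among the tested transcripts of a gene. Genes with several transcripts therefore reach it more easily. Of all 17940 tested transcripts 1695 had such a p in the Cuffdiff test, which is a share of transcripts and not of genes. The ratios of 7 of the 10 were above 1 and the list median was 0.30. DSP, the desmoplakin gene, was listed at 54.8 and 68.0 FPKM.

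The lists of integrins and laminins, of matrix proteases and of the cytoskeleton had rises and no falls. Of 27 integrin and laminin genes 3 rose: ITGB8, an integrin subunit that activates TGF-beta, 2.16-fold to 4.17 FPKM, the laminin-332 subunit LAMB3 1.54-fold to 85.7 FPKM, and the linker protein plectin (PLEC) 1.41-fold to 28.6 FPKM. Matrix proteases and their inhibitors rose in 7 of 25 cases (28.0%, median log2 ratio 0.22). MMP13, a collagenase, rose 2.13-fold from 1.18 to 2.52 FPKM, and MMP7, or matrilysin, rose 1.88-fold from 6.81 to 12.8 FPKM. PLAU, the urokinase gene, rose 1.62-fold, from 39.2 to 63.3 FPKM. SERPINB2, the gene of one of its inhibitors, rose 2.27-fold, from 4.29 to 9.73 FPKM. TIMP1, a metalloproteinase inhibitor, rose 1.95-fold. In the actin cytoskeleton list, which also holds tubulin genes, 5 of 43 rose. Among them was the small GTPase RND3, from 163 to 239.6 FPKM. The neuronal tubulin gene TUBB3, from 12.1 to 22.0 FPKM, and TUBB2B, from 7.03 to 10.9 FPKM, were risers outside the actin genes. Actin itself (ACTB) was listed at 1369 and 1579 FPKM, not called. In the list of other basal and myoepithelial markers 4 of 20 rose, VIM, the ATDC gene TRIM29, the inhibitor of differentiation gene ID4 and LAMB3, and 1 fell, the GABA receptor subunit GABRP, from 55.6 to 25.1 FPKM. Of those 20, 18 had ratios above 1 and the median was 0.47.

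In the list of secreted antimicrobial and acute phase genes, falls outnumbered rises. Of its 20 tested members 7 fell and 1 rose, with a median log2 ratio of -0.31. The list was drawn up with earlier results of these data known. Its fallers include RARRES1 and PLAAT4, which its name does not describe, so the count is not one of defence proteins alone. S100A8 fell 2.38-fold, from 1556 to 653 FPKM summed over 4 transcripts, and its partner in calprotectin, S100A9, fell 1.54-fold, from 5716 to 3711 FPKM. RARRES1, a retinoic acid responsive gene, fell 1.83-fold, from 1535 to 839.9 FPKM. The remaining called members, named after their values were seen, were PLAAT4, a phospholipase gene, which fell 1.45-fold, and the beta-defensin gene DEFB1, which rose from 124 to 185 FPKM. LCN2, the lipocalin 2 gene, was listed at 1785 and 1456 FPKM and SLPI, a leukocyte protease inhibitor, at 223 and 238 FPKM, neither called. The other 10 of 13 tested S100 genes were not called, with S100A11 at 1869 and 1961 FPKM and S100P at 1358 and 1334 FPKM.

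Epidermal differentiation genes moved both ways, 3 up and 3 down of 22. TGM1, which cross-links the cornified envelope, fell 2.71-fold, from 6.03 to 2.22 FPKM. The protein deiminase genes PADI2 and PADI3 fell 2.70- and 1.45-fold, from 28.8 to 10.7 and from 16.3 to 11.3 FPKM. The serpin gene SERPINB3 rose 2.19-fold, from 2.32 to 5.09 FPKM, SERPINB5, the maspin gene, 1.86-fold to 27.7 FPKM, and the cystatin gene CSTA 1.48-fold to 74.2 FPKM. The abundant kallikreins KLK5 and KLK6 were listed at 935 and 830 FPKM and at 831 and 865 FPKM, not called.

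Luminal genes had 1 rise and 1 fall among 20 tested. AGR2, a protein disulfide isomerase of secretory cells, rose from 47.96 to 69.8 FPKM, and the faller was CYP4Z1. The surface protein CD24 was listed at 1143 and 886 FPKM summed over 2 transcripts and the secretory cell factor XBP1 at 446 and 373 FPKM, neither called. Among 17 genes of the 17q12 HER2 amplicon none was called by the authors' Cuffdiff test, and 4 had an unadjusted p under 0.05. Their median log2 ratio was -0.09 with FPKM summed over transcripts and -0.24 with each gene taken at its most abundant transcript alone.

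Growth arrest genes rose in 3 of 33 cases, and 1 mitotic gene fell. CDKN1A was the 1 of 7 CDK inhibitor genes called. CDKN2A, whose products include p16, was listed at 22.1 and 32.4 FPKM summed over 2 transcripts, not called. These 2 transcripts differed in direction, at 11.7 and 25.9 FPKM and at 10.4 and 6.51 FPKM, so the sum is not a level of p16. Of 33 genes in the growth arrest and DNA damage list 3 rose, GADD45A, a DNA damage response gene, 2.13-fold from 59.3 to 126 FPKM, the cytokine gene GDF15 2.03-fold from 386 to 785 FPKM, and PHLDA3, an inhibitor of AKT, 1.42-fold to 83.1 FPKM. Their list median was 0.05. GADD45B, of the same family as GADD45A, was listed at 67.2 and 78.7 FPKM and was not called. In the G2/M and mitosis list, 49 of 53 tested genes had ratios below 1 and the median log2 ratio was -0.24. PRC1, the gene of a protein of the central spindle, was the one called, falling 1.39-fold from 43.1 to 31.0 FPKM (log2 ratio -0.47, q = 0.027 in the authors' deposited table). In the DNA replication and G1/S list the median was -0.04. There E2F2 rose from 2.50 to 4.46 FPKM and E2F1 fell from 14.7 to 10.3 FPKM, members of 1 transcription factor family, while CCND1, the cyclin D1 gene, was listed at 889 and 884 FPKM. None of 37 cell death regulators was called by the authors' Cuffdiff test, and 4 had an unadjusted p under 0.05. MCL1, a BCL2 family survival gene, was listed at 169 and 220.3 FPKM.

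**Figure D4:**
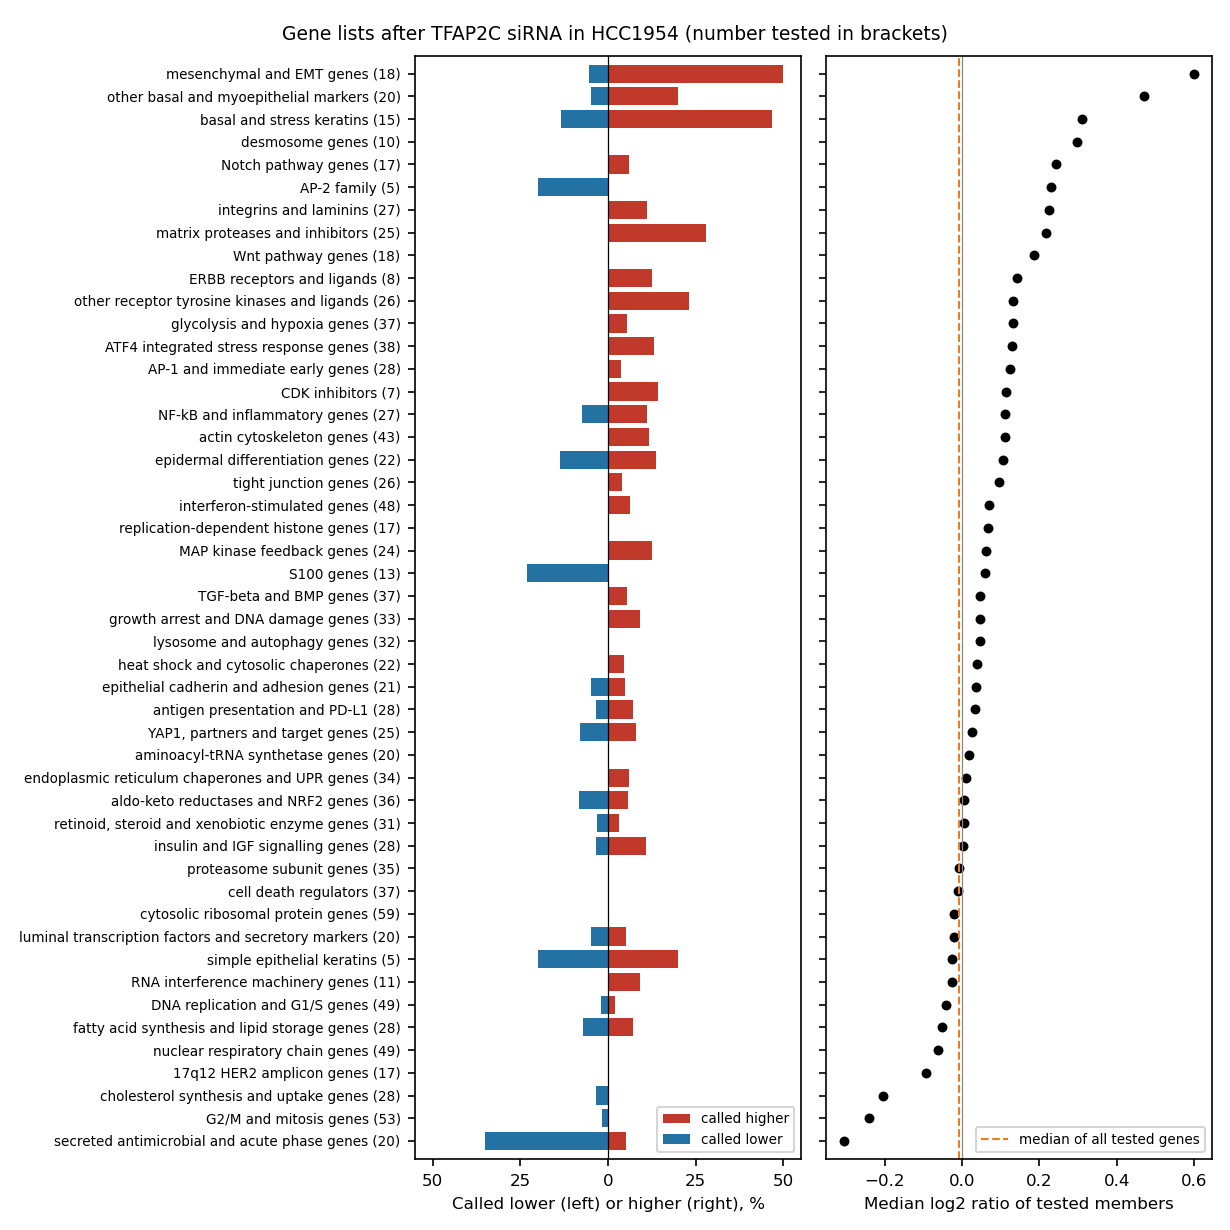
Left, the share of each list's tested members called lower (blue, to the left) or higher (red, to the right). Right, the median log2 ratio of its tested members, with a dashed line at the median of all tested genes. Lists with at least 5 tested genes are drawn, ordered by median. Mesenchymal genes stand at the top with a median of 0.60, and the secreted antimicrobial list at the bottom with -0.31.

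Ligands and receptors of growth factor pathways rose in several families. Among 8 ERBB receptors and ligands 1 was called, AREG, an EGFR ligand, which rose 1.91-fold from 10.6 to 20.2 FPKM. The receptor genes EGFR and ERBB3 were listed at 22.8 and 23.0 FPKM and at 37.6 and 43.1 FPKM, not called. Of 26 genes of other receptor tyrosine kinases and their ligands 6 rose and none fell. MET, the hepatocyte growth factor receptor, rose 2.06-fold, from 36.6 to 75.6 FPKM over 3 transcripts. The receptor MERTK and its ligand GAS6 rose 1.88- and 1.73-fold, to 3.17 and 10.98 FPKM. EFNB2, an ephrin ligand, rose 2.65-fold, from 2.84 to 7.54 FPKM, VEGFC, a lymphatic growth factor, 2.07-fold to 9.22 FPKM, and FGFBP1, a carrier of FGF proteins, 1.98-fold to 11.8 FPKM. VEGFA was listed at 183 and 199.9 FPKM, not called.

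Of the MAP kinase feedback list 12.5% rose, against 2.28% of all genes, and of the immediate early list 3.57%. The phosphatase gene DUSP7 rose from 5.98 to 10.8 FPKM, PHLDA2 went up from 13.9 to 23.7 FPKM, and PHLDA1 rose 1.45-fold to 121 FPKM, which makes 3 of 24. The other 21 were not called, and the median log2 ratio of the list was 0.06. Among those 21, ERRFI1 was listed at 342.7 and 342.6 FPKM and DUSP5 at 127 and 124 FPKM. DUSP6, a phosphatase of ERK, was listed at 76.7 and 68.7 FPKM. Among 28 AP-1 and immediate early genes 24 had ratios above 1 with a median of 0.12, and 1 was called, JUNB, from 79.5 to 118 FPKM.

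In other signalling lists the called genes were mostly ligands, adaptors and binding proteins. JAG1, a Notch ligand, rose 2.51-fold, from 29.7 to 74.4 FPKM (log2 ratio 1.33, standard error 0.31), as the 1 called gene of 17 in its pathway. HES1, a target of Notch, was listed at 65.1 and 81.4 FPKM. In the insulin and IGF list IRS1 and IRS2, adaptors of the receptors, rose 2.20- and 1.88-fold, from 1.37 to 3.004 and from 1.67 to 3.14 FPKM. The binding protein genes went in opposite directions, with IGFBP3 rising 2.16-fold from 115 to 248 FPKM and IGFBP5 falling 2.22-fold from 67.8 to 30.5 FPKM. In the YAP list, which holds YAP1 with its partners and regulators beside known targets, 2 of 25 rose and 2 fell. F3, the tissue factor gene, rose 2.08-fold, from 71.8 to 149 FPKM, and the LIM protein gene AJUBA rose 1.24-fold. YAP1 itself fell 1.48-fold, from 115 to 78.0 FPKM over 8 transcripts, and CCN2, a widely used YAP target, fell 1.44-fold, from 41.6 to 28.9 FPKM. In the TGF-beta and BMP list 2 of 37 genes rose, TGFBI among them, and 0 of 18 Wnt genes were called by the authors' Cuffdiff test, with 2 at an unadjusted p under 0.05.

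Immune genes moved in both directions. The 2 ligands of the receptor PD-1 rose together, CD274 as above and PDCD1LG2, the PD-L2 gene, 2.43-fold from 5.93 to 14.4 FPKM (log2 ratio 1.28, standard error 0.41). VTCN1, a related checkpoint ligand also called B7-H4, fell 1.58-fold, from 70.2 to 44.4 FPKM over 4 transcripts. Class I antigen presentation genes were not called, with B2M at 1027 and 1035 FPKM and HLA-C at 158.5 and 159.7 FPKM. In the NF-kB and inflammatory list, PTGS2 and the cytokine genes IL1B and IL18 rose, the latter 2 by 2.27- and 1.68-fold to 4.28 and 22.0 FPKM. The chemokine genes CCL2 and CCL5 fell 2.94- and 2.42-fold, from 11.2 to 3.83 and from 8.67 to 3.58 FPKM. Of 48 interferon-stimulated genes 3 rose and none fell, and 7 had an unadjusted p under 0.05. ISG15, a ubiquitin-like modifier, rose 2.30-fold, from 127 to 291 FPKM, IFI6 1.60-fold to 196 FPKM and IFI44L 1.48-fold to 24.0 FPKM. The median of that list was 0.07, and IFITM3 was listed at 670 and 668 FPKM.

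Of 38 genes of the integrated stress response under ATF4, 5 rose and none fell (13.2%, against 2.28% of all genes rising), with STC2, a secreted glycoprotein gene, at 78.3 and 138 FPKM and DDIT4, an inhibitor of mTORC1, at 372 and 522 FPKM. ATF4 was listed at 311 and 336 FPKM. Among 34 endoplasmic reticulum genes PDIA4 rose from 112 to 163 FPKM and SEL1L from 17.6 to 24.7 FPKM. The small heat shock gene HSPB8 rose 2.14-fold, from 3.24 to 6.93 FPKM. In the list of glycolysis and hypoxia genes 2 of 37 rose, adrenomedullin (ADM) from 12.4 to 23.2 FPKM and the histone demethylase KDM3A from 7.97 to 12.7 FPKM.

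Lipid and detoxification enzymes moved both ways. In cholesterol synthesis and uptake 1 of 28 genes fell and none rose, 21 had ratios below 1, and the median log2 ratio was -0.20. FDPS, the farnesyl diphosphate synthase gene, was listed at 80.99 and 64.2 FPKM and was not called. In fatty acid synthesis and lipid storage 2 of 28 genes rose and 2 fell. ACSS2 and ACSL1, which make acetyl-CoA and long-chain acyl-CoA, fell 1.51- and 1.32-fold, while ACSL4 and the desaturase family gene FADS3 rose 1.56- and 1.59-fold. Among 36 aldo-keto reductase and NRF2 genes 2 rose and 3 fell, with a median log2 ratio of 0.01. GPX1, a glutathione peroxidase, rose 1.44-fold, from 176 to 253 FPKM, and OSGIN1, an oxidative stress gene, rose 1.49-fold to 30.1 FPKM. AKR1B10, an aldo-keto reductase, fell 2.05-fold, from 212 to 103.5 FPKM (log2 ratio -1.03, standard error 0.31), and its close copy AKR1B15 fell 1.81-fold, from 61.9 to 34.2 FPKM, with reads that can be shared. UGT1A6, a glucuronosyltransferase that shares exons with its family, fell 1.64-fold. NQO1, a common NRF2 target, was listed at 521 and 442 FPKM, not called. AHR, the aryl hydrocarbon receptor gene, rose from 42.3 to 60.3 FPKM.

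Housekeeping lists served as a view of the background. None of 59 ribosomal protein, 49 respiratory chain, 35 proteasome, 20 tRNA synthetase, 32 lysosome or 17 histone genes was called by the authors' Cuffdiff test, with list medians between -0.06 and 0.07. At an unadjusted p under 0.05 these lists had 3, 9, 4, 3, 4 and 2 genes, in the same order. Ribosomal protein genes were among the most abundant, with RPL30 at 2603 and 2490 FPKM. Among 11 genes of RNA interference AGO2, the slicer, rose from 6.57 to 11.1 FPKM and DICER1 was listed at 16.8 and 13.5 FPKM, not called. Across the 51 lists, 118 of the 361 called genes belonged to at least 1.

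The other 243 called genes lay outside the lists, and the examples here were chosen after their values were seen. IDO1, which degrades tryptophan, rose 1.81-fold, from 11.7 to 21.3 FPKM, and the gap junction gene GJB2 rose 1.92-fold, from 8.70 to 16.7 FPKM. ANXA1, the annexin A1 gene, rose 1.60-fold, from 214 to 342 FPKM. INHBE, an inhibin subunit gene, rose 5.28-fold, from 0.689 to 3.64 FPKM, again from below the floor. Among fallers, the chloride channel gene ANO1 went from 193 to 107 FPKM, a 1.81-fold fall, and the metalloreductase gene STEAP4 from 255 to 145 FPKM, a 1.76-fold fall. The matrix Gla protein gene MGP fell 1.78-fold, from 151 to 84.7 FPKM, and the folate receptor gene FOLR1 1.57-fold, from 90.3 to 57.6 FPKM. The small GTPase gene RAB31 fell 2.13-fold, from 28.1 to 13.2 FPKM.

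Most calls rested on 1 transcript, and for some genes the transcripts of 1 gene went opposite ways. Of the 361 called genes 301 had a single tested accession. None of the other 60 had all its accessions called, and 27 of the 60 had an accession with a ratio on the other side of 1. CDKN1A is an example in which the sum followed the called transcript, at 8.59 and 38.8 FPKM, while the second was listed at 5.67 and 3.36 FPKM. In KCTD10, an adaptor of ubiquitin ligases, 1 transcript went from 12.6 to 1.00 FPKM and was called, and another was listed at 6.11 and 13.99 FPKM. The sum of its 3 transcripts was 19.6 and 17.6 FPKM, a fall of 1.11-fold. MRPL42, of the mitochondrial ribosome, and SLC25A13, a mitochondrial carrier, had the same pattern, with sums of 15.1 and 13.8 FPKM and of 12.97 and 12.7 FPKM. In 1 further gene the called transcript went against the sum, so it counts in neither direction. The sums of 6 called genes, IRF2BP2, KCTD10, MRPL42, NOB1, SLC25A13 and SNHG8, moved by less than 1.2-fold.

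**Figure D5:**
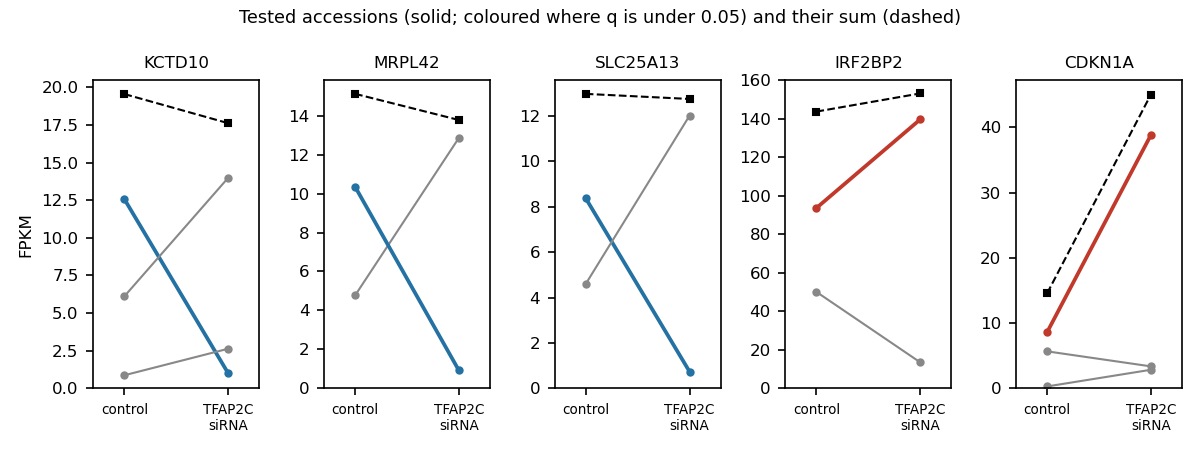
FPKM in control and TFAP2C siRNA cells of each tested transcript (solid lines, coloured where the deposited q-value is under 0.05) and of their sum (dashed) for 5 genes. In KCTD10, MRPL42 and SLC25A13 the called transcript drops while another is higher and the sum stays near level. In CDKN1A the sum follows the called transcript.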

How the data were processed

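RNA of HCC1954 cells was sequenced from 3 control and 3 TFAP2C siRNA samples, and the labels' protocols name a TruSeq RNA kit. The submitters' processing notes list Bowtie 0.12.2, Cuffdiff without a version, hg19 and GRCh37. The FPKM values, 1 per group and accession with the samples pooled, are those the authors deposited, per the file headers. Each p-value and q-value was deposited by the authors as used here, and the test statistic was used as a score on the scale the authors deposited. Of 66321 entries 17940 had a completed test, 48377 were not tested and 4, all of ORMDL3, failed. Recomputing q from the deposited p by the Benjamini-Hochberg method changed 0 calls.

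Accessions were matched to symbols by RefSeq names (GRCh38.p14, for names and promoters only): 17782 of the tested entries matched and 158 did not. Gene coordinates are from the GRCh37 GENCODE annotation. FPKM of tested accessions was summed per symbol and no pseudocount entered a printed value (Python 3.11.15, pandas 2.3.3). No model was fitted to samples, so n and spread per sample are not given. Alternatives changed the summing, the threshold, the adjustment, the low-level filter, a pseudocount, the centring and, added after seeing the data, a minimum change. The call rule was tested on simulated data.

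The genes named are the AP-2 family, the 15 largest rises and falls with at least 1 FPKM in both groups, and in each of 51 lists up to 6 called members and 4 uncalled members of highest control level. Members and lists were chosen with earlier results of these data known. Some genes that this rule names are not reported here.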

Additional observations from a re-analysis of the deposited data

Results flagged for a closer look

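One result lay outside the genes with a current symbol. An unmatched accession, at the position of the hair keratin gene KRT34 (chr17:39533921-39538636, GRCh37) in the type I keratin cluster, was listed at 0.249 FPKM in the control and 2.70 FPKM after TFAP2C siRNA. This is 10.8-fold higher, with q = 0.0135 in the authors' deposited table. It was flagged because no comparison of named genes uses it, and because its level after knockdown is above that of the control. Its control level is low and it entered the test only through its level after knockdown. It is 1 of 2 called entries without a symbol. The other, at the position of MICAL2 (chr11:12308447-12383685, GRCh37), fell from 4.12 to 2.41 FPKM, with q = 0.00773 in the authors' deposited table. The annotation gene at each position was found by overlap, and whether the reads came from that gene was not tested.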

How the results depend on the processing

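No paired analysis was possible because the deposited columns hold groups and not single samples, and for the same reason no sample could be left out. At q under 0.01, 62 genes were called lower instead of 108 and 169 higher instead of 253, all of them among those called at 0.05. At q under 0.1 the counts were 149 and 323. Adjusting the smallest p per gene over genes gave 120 lower and 286 higher, of which 104 and 249 were shared with the counts in the report. The other settings (all accessions summed, the most abundant accession alone, at least 1 FPKM in both groups, 1 FPKM added, centring on the median, and a minimum change of 1.2-fold added after seeing the data) gave 105 to 108 lower and 249 to 253 higher. Among the 118 called genes that the naming rule covers, no direction reversed. Outside them, KCTD10, MRPL42 and SLC25A13, called lower here, had ratios above 1 with the most abundant transcript alone. NOB1, called higher here, had a ratio below 1 in that setting. None of these most abundant transcripts had q under 0.05. The share of calls that were rises stayed between 68.4% and 73.2%. The log2 ratio of TFAP2C was -2.02 with 1 FPKM added. Of 118 called genes that the naming rule covers, 25 were not called at q under 0.01, CALD1, KRT19, PRC1 and E2F1 among them, and 4 (YAP1, VTCN1, SLC3A2 and GPX1) were lost with the adjustment over genes. Taking the most abundant accession alone moved the median of 4 of 50 lists by over 0.1. The number of fragments behind each level is not known, so what depth limits could not be stated per gene.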

Other observations

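Small nucleolar RNA and microRNA genes (SNORA, SNORD, SCARNA and MIR symbols) were the tested genes listed at 0 in a group. Of 209 such genes tested, 10 were at 0 in 1 group, 6 of them in the control and 4 after knockdown, and no other tested gene was. The authors' Cuffdiff test called none of the 209, and 5 had an unadjusted p under 0.05.

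Protein-coding genes made up 244 of the 253 genes that rose and 101 of the 108 that fell. Pseudogenes were 8 of the rises and 5 of the falls, and long noncoding RNA genes 1 and 2. Of the 364 called accessions 211 had the smallest p in the authors' deposited table, 5e-05, so the p-values do not rank these among themselves. Before adjustment, 1695 of 17940 accessions had p under 0.05. Among entries without a completed test, 92 had over 50 FPKM, and no call could be made for them.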
